A study of Mus musculus with 9 samples.

Results

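Xkr7, Pappa2, Akap6 and Elfn1 are 4 genes with large falls in the retinas labelled as Neurog2 mutants. They were chosen by name from the 12388 gene symbols of the deposited tables, as genes that were over 2.5-fold lower in mutant than in heterozygote retinas and little tied to retinal ganglion cells. That comparison therefore chose them, and its values are given here as a description. All 4 were listed in the table of mutant against heterozygote, each with 1 transcript, and only Akap6 was listed in the table of knock-in against mutant.

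The study sequenced RNA of dissociated retinas from CD-1 mouse embryos at E12.5, with 3 samples in each of 3 genotypes. The KI group carries GFP at one Neurog2 allele and a knock-in of another gene at the other. The MUT group (Neurog2GFP/GFP) carries GFP at both alleles, and the HET group (Neurog2GFP/+) carries GFP at a single allele beside an intact one. Every group thus carries at least one GFP allele, and no group without it is used here. A sample was made from pairs of GFP-positive optic cups and no sort of single cells is named. The files hold 1 RPKM value for each transcript and group, which is the density of reads over a transcript relative to all mapped reads. Values per sample, their spread and the depth of each library are therefore unknown. The only measure of error is the test in the authors' deposited tables, with a transcript called at a q-value of 0.05 or less. Nothing in the labels tells whether samples of 1 group are from separate litters, so that test covers only the spread between these samples.

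Neurog2 is a basic helix-loop-helix factor that binds DNA at E-boxes and, as a proneural protein, starts neuronal differentiation in dividing progenitors. The 4 genes encode proteins of unlike kinds. Xkr7 is a membrane protein of the XK family, in which some members, such as Xkr8, expose phosphatidylserine on the surface of dying cells. Pappa2 is a secreted metalloproteinase that cleaves insulin-like growth factor (IGF) binding proteins and so frees IGF. Akap6 is a scaffold that anchors protein kinase A (PKA) at the nuclear envelope and is best known from heart muscle and neurons. Elfn1 is a leucine-rich repeat protein of the synaptic membrane that binds metabotropic glutamate receptors across the synapse.

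The 250 bases before the RefSeq start of Xkr7, Akap6 and Elfn1 (build GRCm38.p6, each on the plus strand and written 5′ to 3′) are shown because proneural factors bind E-boxes; capitals mark each E-box, CANNTG. The windows are chr2:153031602-153031851 for Xkr7, chr12:52699133-52699382 for Akap6 and chr5:139907616-139907865 for Elfn1.
Xkr7: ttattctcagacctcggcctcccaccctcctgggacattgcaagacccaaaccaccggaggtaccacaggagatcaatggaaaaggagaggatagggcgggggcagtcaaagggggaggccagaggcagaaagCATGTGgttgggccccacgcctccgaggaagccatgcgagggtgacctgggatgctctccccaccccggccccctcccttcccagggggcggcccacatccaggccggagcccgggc
Akap6: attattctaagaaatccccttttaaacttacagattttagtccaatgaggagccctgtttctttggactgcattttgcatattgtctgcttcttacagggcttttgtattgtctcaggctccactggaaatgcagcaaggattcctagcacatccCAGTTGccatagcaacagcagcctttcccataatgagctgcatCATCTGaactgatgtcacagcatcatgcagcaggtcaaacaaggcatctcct
Elfn1: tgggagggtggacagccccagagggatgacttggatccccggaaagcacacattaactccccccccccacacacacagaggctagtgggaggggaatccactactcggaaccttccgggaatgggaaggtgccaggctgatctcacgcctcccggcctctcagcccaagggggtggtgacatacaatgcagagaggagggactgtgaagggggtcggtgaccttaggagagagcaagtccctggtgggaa
The window of Xkr7 held 1 E-box, CATGTG, whose first base lay at position -117 from the start. That of Akap6 held 2, CAGTTG at -95 and CATCTG at -52, and that of Elfn1 held none. The Elfn1 window ends at 139907865, before the start of the authors' locus and of the GENCODE gene at 139907943. The bases between them were not searched. The window of Pappa2 (minus strand, chr1:158958176-158958425) also held 1, CATTTG at -147. The letters of this window are not shown because 192 of its bases lie in an exon of GENCODE. In GENCODE the longest coding transcript of Pappa2 starts at 158958367, so this E-box lies within that transcript and not before it. The window also lies inside the authors' locus, which reaches 158980490. Of 32851 RefSeq promoter windows of the same length, 66.2% held CANNTG, so 3 of 4 is near that share. CAGATG or its reverse complement CATCTG, a form favoured by Neurog2, was in 14.4% of windows and among the 4 genes in that of Akap6. CATATG, another such form, was in 3.46% of windows and in none of the windows of the 4 genes. CATATG reads the same on both strands, and both forms are also counted under CANNTG. A match is only a run of letters, and absence says only that these letters are not in the window.

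Xkr7 (chromosome 2, 153031852 to 153055775 on mm10, plus strand) was at 0.290 RPKM in MUT and 1.36 RPKM in HET. The MUT level was 21.3% of the HET level, a log2 ratio of -2.23, with q = 0.0109 in the authors' deposited table. This was the largest fall among the 136 transcripts called lower in MUT. A q of 0.0109 is the lowest of this comparison, where 125 transcripts, with Pappa2 and Akap6 among them, share the lowest p-value. It therefore does not rank them. The authors' test statistics were -3.27 for Xkr7, -4.92 for Pappa2 and -5.45 for Akap6. GENCODE gives Xkr7 a single transcript of 3 exons and 2711 bases, of which 64.2% is coding, and places no other gene over it.

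Pappa2 (chromosome 1, 158711727 to 158980490, minus strand) was at 0.582 RPKM in MUT and 2.05 RPKM in HET. The log2 ratio was -1.82 (q = 0.0109 in the authors' deposited table), the next largest fall after Xkr7. Its longest coding transcript has 22 exons and 9518 bases. The noncoding gene 1600012P17Rik lies within this locus on the same strand and was not listed under its own name, so a share of reads from it cannot be told apart.

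Akap6 (chromosome 12, plus strand; the authors' locus runs from 52699383 to 53151015) was at 1.18 RPKM in MUT and 3.90 RPKM in HET. Its log2 ratio was -1.73 (q = 0.0109 in the authors' deposited table), and it ranked 3 by size of fall. Its longest coding transcript has 14 exons and 14847 bases, and the authors' locus ends before the end of the GENCODE gene at 53155599. A shorter coding transcript starts at 52795836, and the single listed row does not show which form was measured.

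Elfn1 (chromosome 5, 139907943 to 139974722, plus strand) was at 0.348 RPKM in MUT and 0.982 RPKM in HET. The log2 ratio was -1.50 with q = 0.0424 in the authors' deposited table, and the fall ranked 10. Elfn1 had the lowest HET level of all 136 transcripts called lower. Processed pseudogenes lie on the opposite strand within Elfn1 and Akap6, and the labels do not say that the counting used strand.

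**Figure D1:**
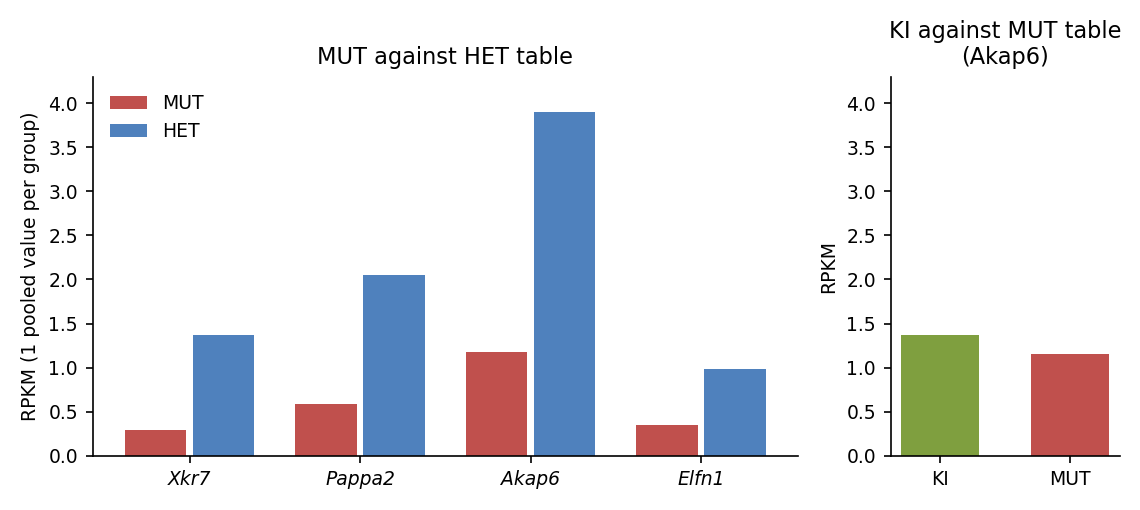
Bars give RPKM, 1 pooled value per group and so without error bars; the left panel shows MUT and HET for the 4 genes and the right panel KI and MUT for Akap6 in the other table. Each MUT bar is 21.3% to 35.4% of its HET bar, and the Akap6 bars of KI and MUT are 1.37 and 1.16 RPKM.

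All 4 genes were expressed below the median level in both groups, and Akap6 in HET came nearest to it. The HET values exceeded those of only 10.3% (Elfn1), 17.7% (Xkr7), 27.4% (Pappa2) and 43.5% (Akap6) of the 27311 transcripts in the table, whose median was 5.03 RPKM in MUT and 5.07 RPKM in HET. The order of the 4 levels was Akap6, Pappa2, Xkr7 and Elfn1 in HET, and in MUT Elfn1 (0.348 RPKM) stood above Xkr7 (0.290 RPKM). With no values per sample it cannot be said which neighbours in this order differ beyond their spread. The 4 levels spanned 4.07-fold in MUT and 3.98-fold in HET.

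Because the comparison chose them, that all 4 were called is no result; over all transcripts 0.498% of transcripts were called lower and 0.11% higher. Among the 10762 transcripts under 4 RPKM in the higher group, which include all 4 genes, 35 or 0.325% were called lower. Over 2.5-fold lower values were far more common than calls. With both values above 0, 1811 transcripts were past that fold, or 6.63% of all 27311. Only 22 transcripts, or 0.0806% of all 27311, were past that fold and also called. The median log2 ratio of all transcripts with both values above 0 was 0.02.

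**Figure D2:**
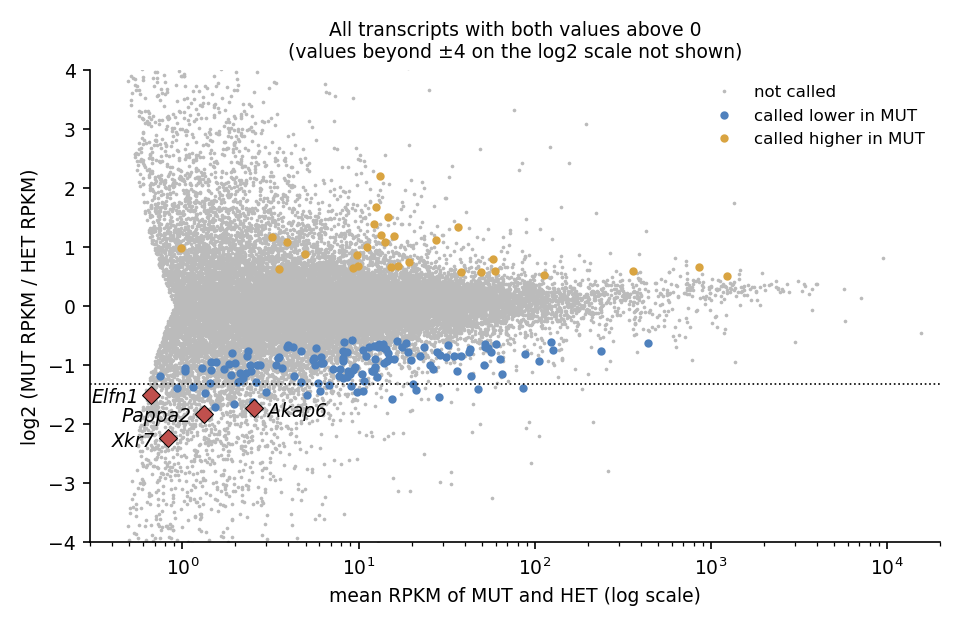
Each point is a transcript, with the mean RPKM of MUT and HET on a log x axis and the log2 ratio of MUT over HET on the y axis; the dotted line is the 2.5-fold threshold. The 4 genes (diamonds) lie under 4 RPKM, at log2 ratios of -1.50 to -2.23.

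Around the threshold of 2.5-fold, the called transcripts just inside were those of Acsl6 at 2.52-fold lower, L1cam at 2.55-fold and Klhl1 at 2.59-fold. Those just outside were of Ebf3 at 2.48-fold, 2810471M01Rik at 2.46-fold and Gsg1l at 2.46-fold. L1cam, a neuronal adhesion molecule, and Ebf3, a transcription factor of ganglion cells, were more abundant than the 4 genes. These single transcripts were at 5.10 and 11.6 RPKM in MUT and 13.0 and 28.9 RPKM in HET. Summed over its 4 listed transcripts, Ebf3 was at 25.3 RPKM in MUT and 51.3 RPKM in HET, a log2 ratio of -1.02. The low-level gene Klhl1 was at 0.643 RPKM in MUT and 1.67 RPKM in HET.

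Other genes of the same families and pathways were listed too, and none of them passed the test in MUT against HET. Of 8 XK family genes 5 were listed. The only call was Xkr7, which this comparison chose, while 1.09% of all 12247 genes were called lower. Xkr4, a scramblase activated by caspase in dying cells, was at 0.851 RPKM in MUT and 1.49 RPKM in HET (q = 0.213 in the authors' deposited table). Xkr8, which has the same role, was at 2.32 RPKM in MUT and 2.30 RPKM in HET. Xk itself was at 2.14 RPKM in MUT and 1.54 RPKM in HET, so members of the family had ratios of both signs. The family's median log2 ratio was -0.69, beside 0.03 over all genes. That median includes Xkr7, which was chosen by its ratio, and was -0.34 without it. None of the 14 listed genes of phospholipid scrambling and flipping was called (median -0.03). Ano6, a calcium-activated scramblase, was at 10.3 RPKM in MUT and 10.7 RPKM in HET.

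Around Pappa2, the paralog Pappa was not listed. Stc1, a stanniocalcin that inhibits pappalysins, was at 1.61 RPKM in MUT and 1.04 RPKM in HET and did not pass (q = 0.527 in the authors' deposited table). Of the 14 listed IGF ligands, receptors and binding proteins none was called (median log2 ratio 0.06). Igfbp5, a substrate of Pappa2, was at 77.9 RPKM in MUT and 100.8 RPKM in HET (summed over 3 transcripts; the lowest q of any of them was 0.737). Igf2 summed over its transcripts was at 289.8 RPKM in MUT and 185 RPKM in HET (lowest q of any transcript 0.486), and the receptor gene Igf1r was at 29.0 RPKM in MUT and 30.7 RPKM in HET. The deposited tables test single transcripts and hold no test of a sum. Igfbp5, Igf2 and Igf1r were thus more abundant than Pappa2 in both groups, while Igf1, an IGF ligand, was at 0.617 RPKM in MUT and 0.996 RPKM in HET.

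Among 11 listed A-kinase anchoring proteins, the only call was Akap6, which this comparison chose. The median log2 ratio of these genes, with Akap6 included, was -0.02. The lowest ratio after Akap6 was that of Akap7, at 15.4 RPKM in MUT and 21.4 RPKM in HET. Akap9, a large scaffold of the Golgi and centrosome with 7 listed transcripts, summed to 46.8 RPKM in MUT and 51.8 RPKM in HET. None of the 15 listed PKA subunits and other partners of Akap6 was called (median -0.11). Pde4d, a phosphodiesterase held by Akap6, was at 4.39 RPKM in MUT and 5.38 RPKM in HET, and Syne1, the nuclear envelope protein that anchors it, was at 3.11 RPKM in MUT and 3.63 RPKM in HET. Prkar1b, a regulatory subunit of PKA, had the lowest ratio of this list, with 3.09 RPKM in MUT and 5.32 RPKM in HET summed over 2 transcripts (lowest q of either 0.993 in the authors' deposited table).

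Of 30 leucine-rich repeat proteins of synapse and axon 20 were listed. The only call was Elfn1, which this comparison chose, and the median log2 ratio with Elfn1 included was -0.29. The paralog Elfn2 was not listed. Lingo3, a neuronal membrane protein, came nearest to a call with 0.993 RPKM in MUT and 1.84 RPKM in HET (q = 0.0892 in the authors' deposited table). Of the 8 metabotropic glutamate receptors only Grm2 and Grm7 were listed, and neither was called. Grm2 was at 3.50 RPKM in MUT and 6.01 RPKM in HET summed over 3 transcripts (lowest q of any 0.645 in the authors' deposited table). Grm7, a partner that Elfn1 is known to bind, was at 4.59 RPKM in MUT and 3.76 RPKM in HET. The relatives named here beyond the closest paralogs were chosen after their values were seen.

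**Figure D3:**
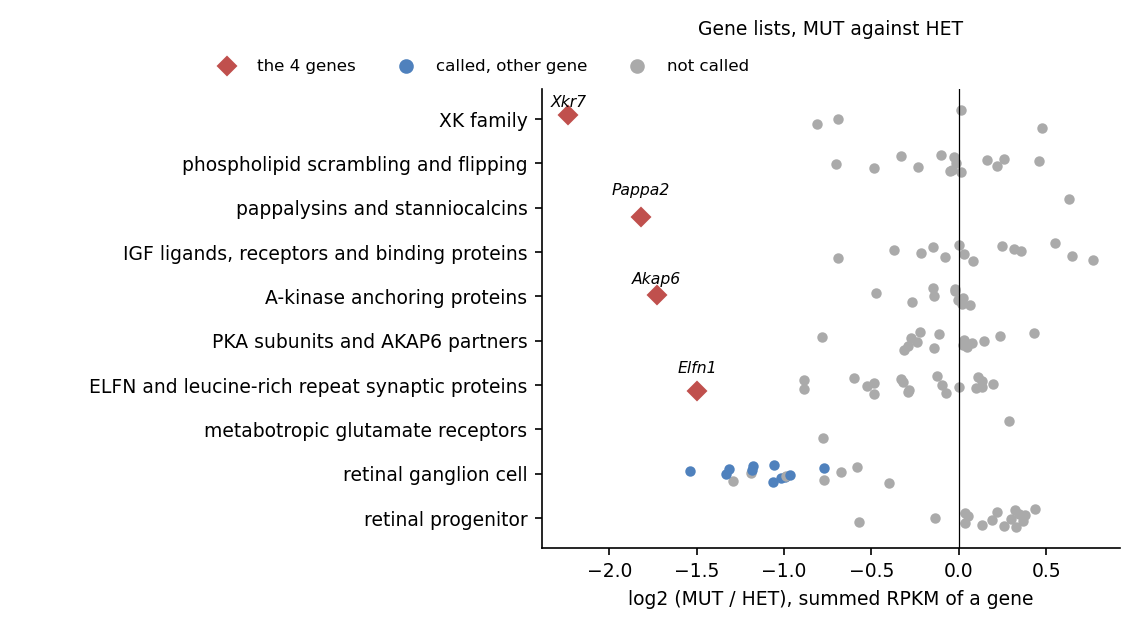
Each point is a gene, placed by the log2 ratio of MUT over HET of its summed RPKM, one line of the y axis per list. The 4 genes (diamonds) were chosen by this ratio, so their place left of the other genes of the upper 8 lists is no result. Those other genes run from -0.89 to 0.77, and the ganglion cell list lies between -1.54 and -0.40.

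The nearest listed gene on each side of the 4 genes was not called either. Astn1, which lies 19.95 kb from Pappa2 and encodes a neuronal adhesion protein, was at 22.8 RPKM in MUT and 32.1 RPKM in HET summed over 2 transcripts (lowest q of either 0.158 in the authors' deposited table). Npas3, 97.66 kb above Akap6, was at 3.73 RPKM in MUT and 2.88 RPKM in HET (q = 0.889). The other neighbours were Rfwd2 beyond the start of Pappa2, Pdrg1 and Tm9sf4 beside Xkr7, Arhgap5 below Akap6, and Psmg3 and Mad1l1 beside Elfn1, with log2 ratios from -0.34 to 0.27 and the q of every transcript at 0.993 or above.

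The knock-in comparison asks what the knock-in allele changes in retinas that lack intact Neurog2, and it shares the MUT samples with the comparison that chose the genes. Akap6 was at 1.37 RPKM in KI and 1.16 RPKM in MUT. The log2 ratio was 0.24, and in the authors' deposited table this difference was not called (p = 0.2295, q = 0.783). Of the 26586 transcripts, 0.47% were called higher and 0.286% lower in KI, which by gene were 1.03% and 0.634%. Set beside the other table after scaling by the 2 MUT values, Akap6 was at 1.39 RPKM in KI and 3.90 RPKM in HET. The KI level was then 35.7% of the HET level, a log2 ratio of -1.49 for which the tables hold no test.

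Xkr7, Pappa2 and Elfn1 have no row in the knock-in table used here. The lowest value in the higher group of any row was 1.04 RPKM in that table and 0.906 RPKM in the other. Of genes with a single transcript and at least 1.2 RPKM in MUT, 4913 of 4928 were also listed in the knock-in table. Of those below 0.5 RPKM, the range of Xkr7 and Elfn1, 22 of 110 were listed, and from 0.5 to 0.9 RPKM, the range of Pappa2, 82 of 237. If that limit alone decided the listing, KI was under 1.04 RPKM for all 3 genes, which is below the HET values of Xkr7 (1.36 RPKM) and Pappa2 (2.05 RPKM) and above that of Elfn1 (0.982 RPKM). The files do not state the rule of listing, and no KI level is given for these genes.

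**Figure D4:**
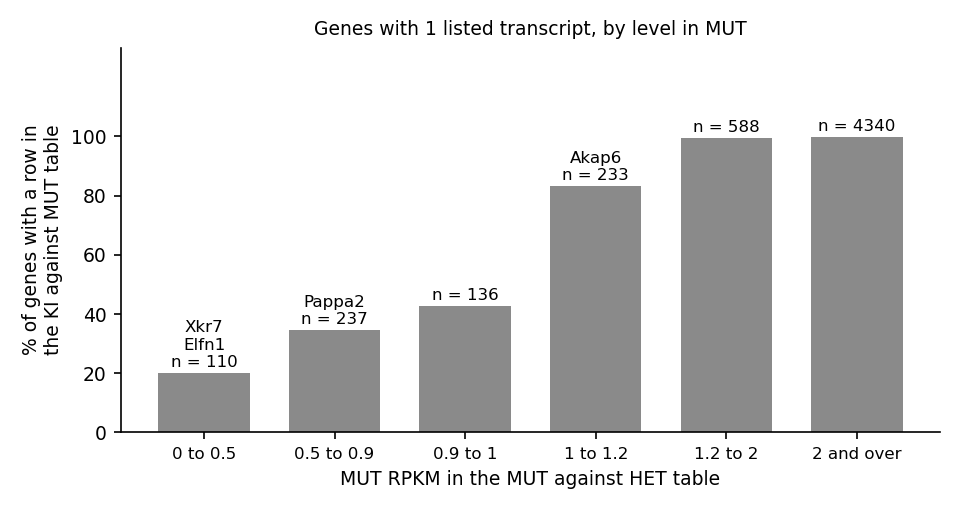
Bars give the percentage of genes with 1 transcript in the MUT against HET table that also have a row in the KI against MUT table, by MUT level in RPKM, with the number of genes above each bar. The share is 20.0% in the lowest class, which holds Xkr7 and Elfn1, and 99.7% at 2 RPKM and over.

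By its ratios in both tables, the genes most like Akap6 among 11098 with both ratios were Mok, a protein kinase, Svop, a transporter-like protein of synaptic vesicles, and Nhlh1, a neuronal helix-loop-helix factor. Their distances from Akap6 over the 2 log2 ratios of the 3 groups were 0.209, 0.256 and 0.271. Nhlh1 was at 5.26 RPKM in MUT and 14.5 RPKM in HET, and at 5.97 RPKM in KI and 5.16 RPKM in MUT of the other table. Svop was at 0.765 RPKM in MUT and 2.38 RPKM in HET, and neither of its differences passed (q = 0.993 and 0.894 in the authors' deposited table). Mok had 1 listed transcript in the table of MUT and HET and 3 in that of KI and MUT, so its summed values rest on different transcripts. The measure could not be had for the other 3 genes.

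Other groups of genes moved in the same comparisons. In MUT against HET, 11 of 18 listed ganglion cell genes were called lower, beside 1.09% of all genes. The list summed to 665 RPKM in MUT and 1257 RPKM in HET. Fewer cells of a type and less RNA per cell cannot be told apart in whole retinas. None of 16 progenitor genes was called (3441 RPKM in MUT and 2894 RPKM in HET). Actc1 was the only one of 13 muscle genes listed, at 1.15 RPKM in MUT and 0.487 RPKM in HET. It was not called (q = 0.541 in the authors' deposited table). Of 10 listed immediate early genes only Btg2 was called, lower in MUT. No listed gene of pigment epithelium, lens, blood or periocular mesenchyme was called in MUT against HET. The 4 Y-linked genes measured were between 0 and 0.0168 RPKM in MUT and between 3.48 and 21.9 RPKM in HET without being called, and Xist was at 505 RPKM in MUT and 184 RPKM in HET. In KI against MUT, called genes were 6 of 10 of pigment epithelium (summed 143 RPKM in KI and 62.0 RPKM in MUT), 3 of 10 of lens (157 and 58.7 RPKM in KI and MUT), 2 of 7 of blood (131 and 35.1 RPKM) and 2 of 6 of periocular mesenchyme (33.4 and 19.4 RPKM), all higher in KI. Over all genes, 1.03% were called higher and 0.634% lower in KI. Foxe3 of the lens was listed at 0 in MUT. Among 17 listed ganglion cell genes, Pou4f2 and Rbpms were called higher in KI, and all 17 had log2 ratios above 0. That list summed to 898 RPKM in KI and 652 RPKM in MUT. Among 16 progenitor genes only Hes5 was called, lower in KI, and the list summed to 3286 RPKM in KI and 3373 RPKM in MUT. Of 10 immediate early genes 6 were called lower in KI (list sum 94.9 RPKM in KI and 229.8 RPKM in MUT), and the Y-linked genes were at 8.81 to 28.6 RPKM in KI. The part of these differences in the values of the 4 genes was not tested. The sample titles of KI carry another leading number than those of MUT and HET. A litter or batch marked by that number cannot be told apart from the KI label. Y-linked genes were lower in MUT than in both other groups, and Xist was higher (496 RPKM in MUT and 174 RPKM in KI). By these values the sexes of the pooled samples differed. With 1 value per group, sex cannot be told apart from the MUT label in either comparison.

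Neurog2, the targeted gene, was at 36.2 RPKM in MUT and 30.2 RPKM in HET (q = 0.993 in the authors' deposited table), and at 112 RPKM in KI and 35.5 RPKM in MUT (q = 0.0104). The tables do not separate the replaced coding part from the rest of the transcript, so these values do not check the alleles. The genotypes are used as labelled.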

How the data were processed

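RNA was measured in 9 samples, 3 each of KI, MUT and HET by the labelled titles. Per the submitters' processing notes, Bowtie2, Cufflinks and Cuffdiff were used on mm10, with no versions given. The authors deposited 1 table per comparison, with 27311 and 26586 transcripts. Per the file headers these hold an RPKM value per group, the test statistic (a score without fixed range), the p-value and the q-value. Replicates were pooled, so depth and spread per sample are unknown and the test is the authors' own. Own Benjamini-Hochberg values matched the deposited q-values to within 5.26e-07; that adjustment was also tested on simulated data.

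Log2 ratios were recomputed from RPKM without a pseudocount (Python 3.11.15, pandas 2.3.3, numpy 2.4.6). Starts of loci were raised by 1, since 2774 of 5404 then equalled the GENCODE start and 95 did as written. Genes were joined by symbol, and levels of list genes are sums over their transcripts. Likeness is the distance over both log2 ratios, for genes of at least 1 RPKM in each table. Named are the members, paralogs, the 3 nearest genes by likeness, 3 on each side of the threshold, genomic neighbours and called list genes; the uncalled list genes named beyond these were chosen after their values were seen. RefSeq promoters matched 4 of 4 members. One gene is not reported here. Members and lists were chosen with earlier results of these data known. Alternatives were other pseudocounts, transcripts, adjustments, thresholds and scalings.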

Additional observations from a re-analysis of the deposited data

How the results depend on the processing

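The 4 falls in MUT kept their sign under every alternative tried, which was bound to happen. Each gene had 1 listed transcript, and neither an added constant nor another q-value adjustment or threshold can reverse a ratio. With 1 RPKM added before the ratio, the log2 ratios were -0.87 for Xkr7, -0.95 for Pappa2, -1.17 for Akap6 and -0.56 for Elfn1, so the size of the fall depends on the pseudocount at these levels. At a q threshold of 0.02 Elfn1 (-1.50) was no longer called, and the calls higher in MUT were 17 in place of 30. At 0.1 the calls higher in KI were 196 in place of 125. Adjusted over both tables together, Elfn1 had q = 0.0392. A filter at a mean of 1 RPKM left no row for Xkr7 and Elfn1. The median of the XK family in MUT against HET was -0.40 with 1 RPKM added and -0.34 with that filter, which leaves out Xkr7. That of pappalysins and stanniocalcins, with 2 listed genes of which 1 is Pappa2, was -0.30 with 1 RPKM added. The Akap6 ratio of KI to MUT was 0.13 to 0.24 and was not called under any setting. That of KI to HET was -1.51 without scaling, -1.49 when scaled by the median of all genes and -1.42 with 0.1 RPKM added. Adding 1 RPKM was not tried for the ratio of KI to HET. Leaving out single replicates was not possible, since values are pooled by group. No paired analysis was possible because the tables hold no values per sample. The low RPKM of the 4 genes limits their precision by an amount that the files do not give.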

Other observations

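Of the 134 genes called lower in MUT against HET, 123 have a row in the KI against MUT table and 11 do not. Besides Xkr7, Pappa2 and Elfn1 these were Slc17a6, Klhl1, Gsg1l, Kcnh8, Cnr2, Nptx1, Gna14 and Grin2c, named after their values were seen. Slc17a6 is a vesicular glutamate transporter, Grin2c a subunit of the NMDA receptor and Nptx1 a secreted pentraxin. Slc17a6 was at 0.713 RPKM in MUT and 1.98 RPKM in HET, Nptx1 at 0.674 RPKM in MUT and 1.40 RPKM in HET, and Grin2c at 0.991 RPKM in MUT and 1.90 RPKM in HET. All 11 were at or under 0.991 RPKM in MUT and between 0.982 and 2.05 RPKM in HET. Their levels in KI are not given here.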
